A study of Mus musculus with 8 samples.

Results

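Integrin subunits of mammary carcinoma cells were followed through exposure to acetate. The group held 10 genes, chosen with earlier results of these data known: Itga2, Itga3, Itga5, Itga6, Itgav, Itgb1, Itgb3, Itgb4, Itgb5 and Itgb6. All 10 were found among the 20189 genes of the deposited expression table, and each lay far above the limit of detection, with 74 reads in the poorest library for the rarest of them. They were grouped by the ligand of their heterodimers: Itga5, Itgav, Itgb3, Itgb5 and Itgb6 for fibronectin and other proteins read through the tripeptide RGD, Itga3, Itga6 and Itgb4 for laminin, and Itga2 for collagen. Itgb1, the beta chain that pairs with most of these alpha chains, was kept apart.

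The RNA came from wild-type 4T1 cells, an established line of mouse mammary carcinoma known for its lung metastases. Acetate cells received 5 mM acetate for 48 h and Vehicle cells received water, both in DMEM with 10% serum, with 4 libraries in each of the 2 groups. Cells turn acetate into acetyl-CoA, and the study made this comparison to ask how a larger acetyl-CoA supply promotes metastasis. The libraries themselves measure neither acetyl-CoA nor metastasis. Acetate and Vehicle libraries of the same number carry a common code in their labels and were treated as a pair. The labels do not say whether the 4 pairs were separate cultures, but the study counts them as 4 independent experiments. The p-values measure the spread between these pairs. A single cell line in culture is the whole model: there is no stroma, and matrix comes from the serum and from the cells themselves.

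Integrins are receptors made of an alpha and a beta chain that span the plasma membrane and tie the extracellular matrix to the cytoskeleton. The alpha chain and its beta partner together decide which matrix protein is bound, and a chain in short supply limits the heterodimers that can reach the surface. In mammary epithelium, laminin receptors hold cells to the basement membrane, while RGD receptors read fibronectin, vitronectin, osteopontin and the latent form of TGF-beta.

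The libraries held 19.9 to 29.3 M reads (M, mega) over the genes of the table, and values below are normalised reads on a total of 20 M per library. Of 6 mammary epithelial markers (Epcam, Krt8, Krt18, Krt19, Cdh1, Cldn4) all were measured, with summed levels of 44747 to 66048 in Vehicle and 47891 to 68528 in Acetate, and 3 of them rose, Krt19, Cdh1 and Cldn4, the call of Cdh1 being lost without replicate 2 (adjusted p = 0.058) or replicate 3 (adjusted p = 0.0689, limma). Of 10 markers of other cells, 7 were in the table, with summed levels of 235 to 1530 in Vehicle and 403 to 2008 in Acetate, nearly all of it Pdgfra. Pdgfra, a receptor of mesenchymal cells, rose by 0.52 on the log2 scale (adjusted p = 3.72e-04), and Pdgfrb, its relative, by 1.4 (adjusted p = 0.0119, limma; 0.0732 without replicate 2, 0.1 without replicate 3 and 0.0802 with a pseudocount of 0.1). The blood and endothelial markers Ptprc, Lyz2, Pecam1 and Cdh5 lay between 0 and 4.85 normalised reads; the part of Pdgfra-bearing cells in the integrin values was not tested. Both libraries of replicate 1 stood apart from the others: 12.4% of the 10840 genes with a mean of at least 64 differed over 2-fold, in the same direction in both groups, between replicate 1 and the mean of replicates 2 to 4. The test of each of the 10 subunits is therefore also given without replicate 1.

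Acetate raised 4 of the 10 subunits and lowered 2. All of the subunits that rose belong to the RGD group (Itga5, Itgb3, Itgb5 and Itgb6), and those that fell were Itgb4 of the laminin group and the collagen receptor chain Itga2. Across all genes of the table, 8.64% of genes passed the same test, 5.99% as higher and 2.65% as lower (limma on log2(value + 1) with the pairs as a block, Benjamini-Hochberg adjustment over all genes, threshold 0.05). Those shares also count genes of few reads: 10840 of the 20189 had a mean of at least 64, as all 10 subunits did. A share for genes of like level was not computed. The subunits were chosen with earlier results of these data known, so their calls are no test of the group against all genes. By direction alone, 4 subunits were higher in 4 of 4 pairs, against 16.7% of all genes, and 3 were lower in 4 of 4, against 11.4%. The median change was 0.05 on the log2 scale for the 10 subunits and 0.02 for all genes. These calls rest on the pairing: without the block 0 of the 10 subunits and 0 of the 20189 genes passed, with 0 subunits and 353 genes at an unadjusted p under 0.05, and the Vehicle and Acetate ranges overlapped for every subunit (1.65% of all genes did not overlap). In bulk RNA, a change in the share of cells that express a subunit and a change in RNA per cell cannot be told apart. Without replicate 1 the blocked test called 7 subunits, the same 6 and Itgav.

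**Figure D1:**
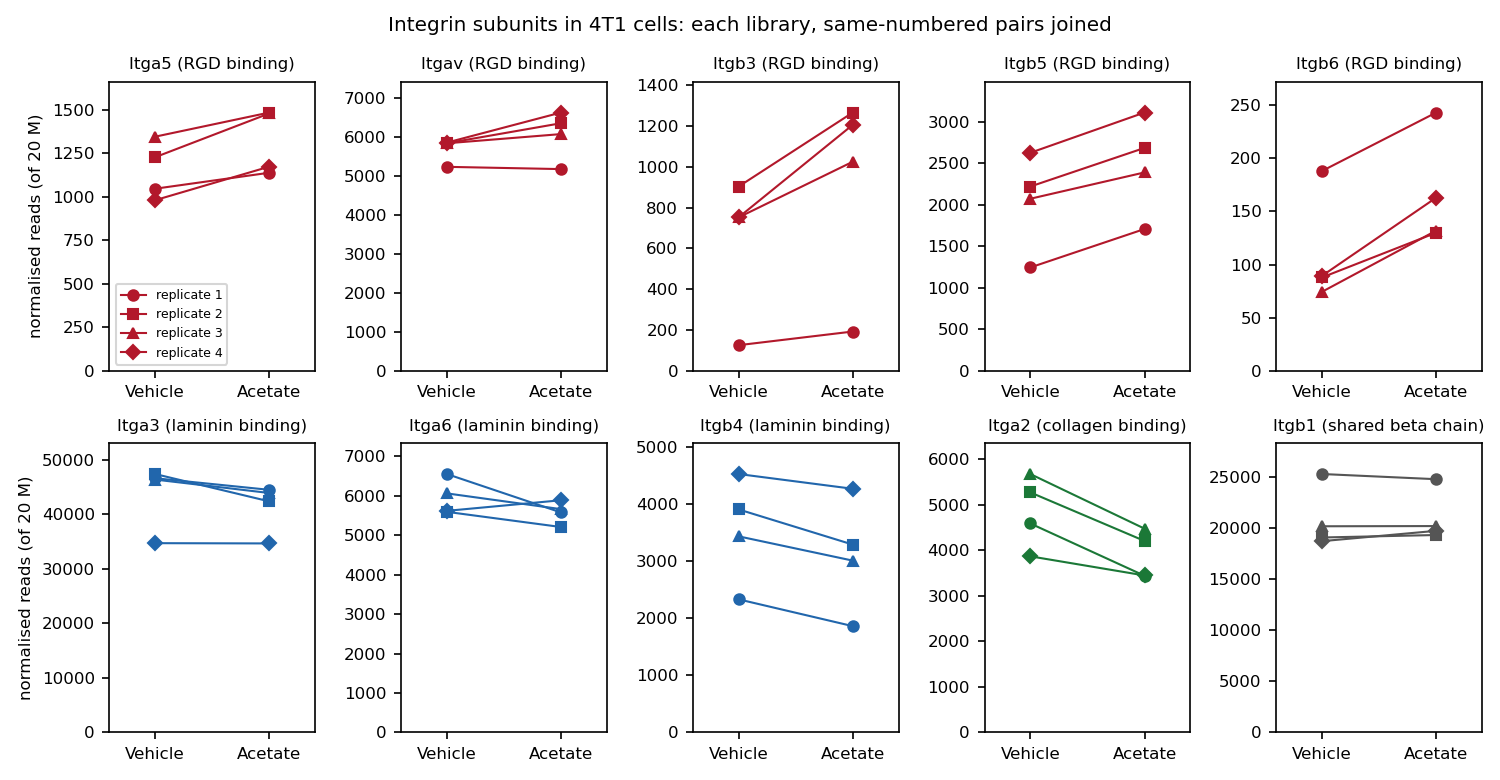
Normalised reads (of 20 M, linear axes starting at 0) of each subunit in the 8 libraries, with a line joining the Vehicle and Acetate library of each replicate. Lines of the RGD group slope upwards, apart from Itgav in replicate 1, and those of Itgb4 and Itga2 slope downwards, while the replicates lie further apart than the ends of most lines.

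Promoter sequence is shown for the subunits with a RefSeq window whose RNA moved, so that those that rose (Itga5, Itgb5, Itgb6) can be read beside the one that fell (Itga2). Bases are those upstream of the annotated gene on build GRCm38.p6, 5′ to 3′ on the strand of the gene, and capitals mark GGGCGG or its reverse complement CCGCCC, the core of the GC box bound by Sp and KLF factors.
Itga5, chr15:103366792-103367041, minus strand: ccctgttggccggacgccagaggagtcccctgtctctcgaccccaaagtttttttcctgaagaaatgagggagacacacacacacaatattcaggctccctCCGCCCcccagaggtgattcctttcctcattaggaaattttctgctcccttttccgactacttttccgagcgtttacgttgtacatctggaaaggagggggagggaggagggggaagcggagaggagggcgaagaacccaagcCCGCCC
Itgb5, chr16:33829415-33829664, plus strand: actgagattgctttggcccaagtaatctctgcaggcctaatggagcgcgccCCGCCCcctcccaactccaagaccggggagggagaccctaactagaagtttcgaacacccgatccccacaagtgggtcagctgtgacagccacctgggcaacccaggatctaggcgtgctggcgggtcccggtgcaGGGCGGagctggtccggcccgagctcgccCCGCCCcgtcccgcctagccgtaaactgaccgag
Itgb6, chr2:60722644-60722853, minus strand: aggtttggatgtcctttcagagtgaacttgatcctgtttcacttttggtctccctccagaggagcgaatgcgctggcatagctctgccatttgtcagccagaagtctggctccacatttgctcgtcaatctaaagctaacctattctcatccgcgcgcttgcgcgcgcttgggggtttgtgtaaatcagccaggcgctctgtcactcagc
Itga2, chr13:114932101-114932350, minus strand: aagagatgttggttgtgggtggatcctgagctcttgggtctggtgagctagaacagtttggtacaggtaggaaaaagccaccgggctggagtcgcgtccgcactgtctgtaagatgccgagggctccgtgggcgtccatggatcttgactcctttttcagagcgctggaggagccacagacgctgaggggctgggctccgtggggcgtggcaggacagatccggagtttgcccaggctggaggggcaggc

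The GC box core was found in 2 places upstream of Itga5 and in 3 upstream of Itgb5, but in 0 places upstream of Itgb6 and Itga2. Over all 32851 RefSeq windows of 250 bases, 32.7% held at least 1 match on either strand. Among subunits whose RNA did not pass the test, Itga3 had 3 matches in its first window and 1 in its second, Itgb1 had 1 and Itgav had 0, so the match did not divide the subunits that rose from the others. Searches on both strands for TGANTCA (the AP-1 site, in 6.75% of all windows) and TATAAA (12.4%) gave 0 matches in any window of the 7 subunits covered, and CCGGAA (the ETS core, 12%) gave 1, in Itga3. GC content was 55.6% for the Itga5 window, 65.2% for Itgb5, 52% for the Itgb6 window shown and 60.8% for Itga2, against a median of 52.4%. Itgb6 also has a second window, inside the annotated gene, with 38% GC.

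Itgb3 and Itgb6, the beta chains with the lowest levels per length, rose most. Itgb3 (ENSMUSG00000020689, chromosome 11, 104608000 to 104670476, plus strand, GENCODE M21 on GRCm38) encodes the beta chain of the alpha-v beta-3 receptor for vitronectin and osteopontin. Vehicle libraries 1 to 4 held 126, 903, 752 and 752 normalised reads of Itgb3, and Acetate libraries 1 to 4 held 193, 1266, 1025 and 1206. Replicate 1 was low in both groups, at -2.66 in Vehicle and -2.58 in Acetate on the log2 scale relative to the mean of replicates 2 to 4, and Acetate 1 lay below Vehicle 2, 3 and 4. Within pairs the rise was even, from 0.45 to 0.68. Its mean was 0.56 ± 0.05 (SE, log2; 95% interval 0.45 to 0.66), a 1.47-fold level with an adjusted p of 1.71e-04 (limma), which was 2.21e-04 without replicate 1. Replicate number held 94.2% of the variance of Itgb3 and treatment 5.63%. Itgb3 was the only subunit that passed the 2-fold limit between replicate 1 and the rest in both groups.

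Itgb6 (ENSMUSG00000026971, chromosome 2, 60598292 to 60722643, minus strand) encodes the epithelial beta chain of alpha-v beta-6, which binds the latent TGF-beta complex. Its normalised reads were 188, 87.9, 74.4 and 89.4 in Vehicle 1 to 4 and 243, 130, 132 and 163 in Acetate 1 to 4. Here replicate 1 was the high one, the opposite of Itgb3, and outside replicate 1 the lowest Acetate library lay above the highest Vehicle library. The rise within pairs ran from 0.37 in replicate 1 to 0.86 in replicate 4. Its mean of 0.65 ± 0.10 (SE, log2; 95% interval 0.43 to 0.87) was a 1.57-fold level, the largest change of the 10 subunits (adjusted p = 0.00265, limma; 0.00224 without replicate 1). The libraries held 74 to 309 reads of it, the fewest of any subunit.

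Itgb5 (ENSMUSG00000022817, chromosome 16, 33829665 to 33949338, plus strand), the beta chain of the vitronectin receptor alpha-v beta-5, was the most abundant of the alpha-v specific beta chains. Vehicle libraries held 1245, 2219, 2072 and 2625 normalised reads and Acetate libraries 1708, 2684, 2389 and 3110. Replicate 1 was again the lowest of each group, and every pair went up, by 0.21 to 0.46. The mean rise of 0.29 ± 0.04 (SE, log2) had an adjusted p of 0.00148 (limma). Without replicate 1 it was 0.24 with an adjusted p of 0.00142.

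The alpha chains of the group differed from each other in their calls. Itga5 (ENSMUSG00000000555, chromosome 15, 103344286 to 103366763, minus strand) forms alpha-5 beta-1, the main fibronectin receptor. It stood at 1047, 1228, 1346 and 981 normalised reads in Vehicle and at 1139, 1480, 1485 and 1174 in Acetate. Replicates 2 and 3 were high and replicates 1 and 4 low in both groups. The rise, 0.20 ± 0.04 (SE, log2; 95% interval 0.12 to 0.28; pairs 0.12 to 0.27), had an adjusted p of 0.00806 (limma). It was 0.0067 without replicate 1, but the call was lost without replicate 2, 3 or 4 (adjusted p = 0.0739, 0.0574 and 0.0748).

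Itgav (ENSMUSG00000027087, chromosome 2, 83724397 to 83806916, plus strand) encodes the alpha-v chain, the partner of Itgb3, Itgb5 and Itgb6 products. Normalised reads were 5240, 5847, 5845 and 5862 in Vehicle and 5182, 6360, 6081 and 6635 in Acetate. Vehicle 2, 3 and 4 lay within a few reads of each other, and replicate 1 was the lowest in both groups and the only pair that did not go up. The change of 0.09 ± 0.03 (SE, log2; 95% interval 0.01 to 0.16) did not pass the test (adjusted p = 0.141, limma), and without replicate 1 it was 0.12 and did (adjusted p = 0.0409). Without replicate 2, 3 or 4 it was 0.07, 0.09 and 0.05 and did not pass (adjusted p = 0.409, 0.288 and 0.43, limma). An antisense transcript, Gm13684, overlaps 634 bases of Itgav exons and was not in the table; whether reads were counted by strand is not stated.

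The makeup of the alpha-v partners in the RGD group was compared as the share of each beta chain in the sum of Itgb3, Itgb5 and Itgb6 per kilobase of exon. Itgb1 and Itgb8 also pair with alpha-v and were left out, so these are not shares of all its partners. Itgb3 held 5.36, 19.4, 17.7 and 14.5% in Vehicle 1 to 4 and 5.98, 21.7, 20.1 and 18.5% in Acetate 1 to 4. The share of Itgb3 was larger in Acetate in 4 of 4 pairs, by 2.36 ± 1.4 percentage points (SD, n = 4), and that of Itgb5, which held between 76.4 and 88% of the sum in every library, was smaller in 4 of 4, by -2.66 ± 1.85 points. Both had p = 0.125 in an exact two-sided sign-flip permutation test over the 4 pairs, the smallest value that 4 pairs can give. The share of Itgb6 was 6.63, 1.56, 1.45 and 1.43% in Vehicle and 6.23, 1.85, 2.15 and 2.08% in Acetate, larger in 3 of 4 pairs (0.308 ± 0.508 points, exact permutation p = 0.375). Without replicate 1 these differences were 2.94, -3.48 and 0.545 points, with 3 pairs and an exact permutation p of 0.25 each. The Itgb6 difference was 0.315, 0.178 and 0.194 points without replicate 2, 3 or 4 (exact permutation p = 0.5, 0.75 and 0.75).

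**Figure D2:**
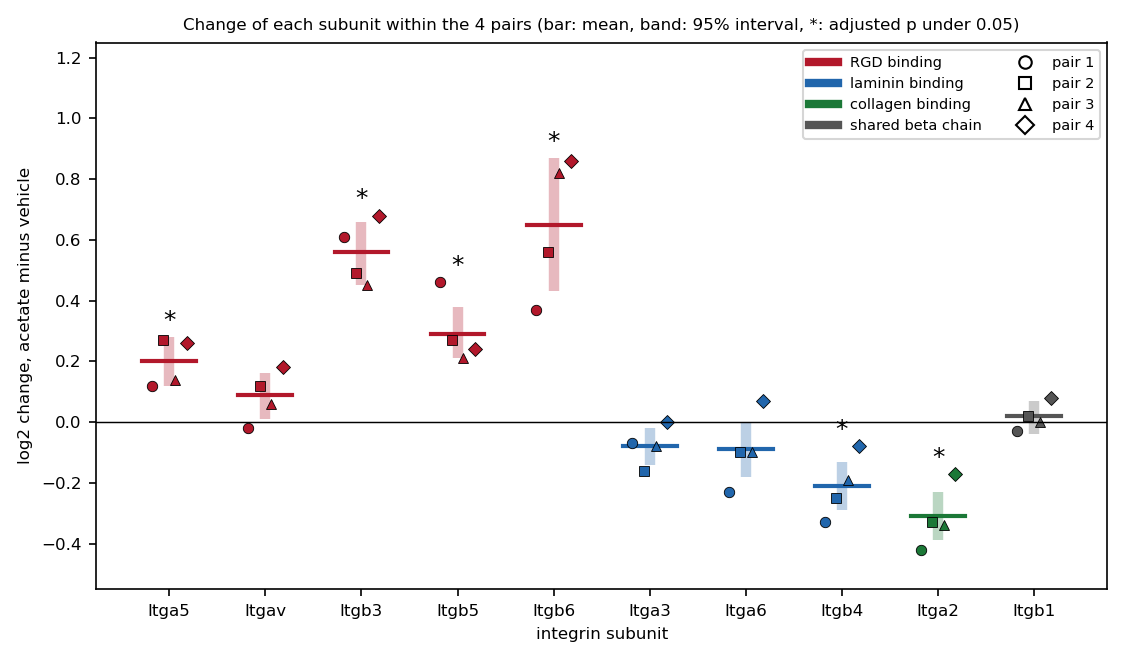
Log2 change of each subunit, Acetate minus Vehicle, with 1 marker per pair, a bar for the mean, a band for its 95% interval from the blocked limma fit and an asterisk for an adjusted p under 0.05. The RGD group lies at or above 0 in all but 1 of its markers, while Itgb4 and Itga2 have all 4 markers below 0 and Itgb1 sits at 0.02.

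In the laminin group 1 of 3 subunits fell. Itgb4 (ENSMUSG00000020758, chromosome 11, 115974709 to 116008412, plus strand) encodes the beta chain of alpha-6 beta-4, which anchors hemidesmosomes to laminin. Vehicle libraries held 2332, 3908, 3436 and 4528 normalised reads and Acetate libraries 1862, 3291, 3010 and 4269. Replicate 1 was lowest and replicate 4 highest in both groups, and each Acetate library lay below its own Vehicle library. The fall shrank from -0.33 in pair 1 to -0.08 in pair 4. Its mean was -0.21 ± 0.04 (SE, log2; 95% interval -0.29 to -0.13) with an adjusted p of 0.00505 (limma). The adjusted p was 0.0124 without replicate 1, 0.0505 without replicate 2 and 0.0671 without replicate 3. An antisense RNA, B230344G16Rik, overlaps Itgb4 exons by 537 bases and was not in the table.

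Itga6 (ENSMUSG00000027111, chromosome 2, 71745616 to 71858416, plus strand), whose product pairs with either Itgb4 or Itgb1, stood at 6550, 5591, 6059 and 5616 normalised reads in Vehicle and 5575, 5206, 5659 and 5885 in Acetate. The Acetate library was the lower one in 3 of 4 pairs, with a mean of -0.09 ± 0.04 (SE, log2) that did not pass the test (adjusted p = 0.199, limma). Without replicate 1 the change of Itga6 was -0.04 (adjusted p = 0.54), and leaving out any 1 pair gave -0.14 to -0.04. Per kilobase, Itgb4 stood at 45.8, 89.9, 73 and 104% of Itga6 in Vehicle and at 43, 81.3, 68.4 and 93.3% in Acetate. The ratio was lowest in replicate 1 of both groups. Length was that of all annotated exons of a gene, so these ratios are no counts of transcripts.

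Itga3 (ENSMUSG00000001507, chromosome 11, 95044474 to 95076801, minus strand), the alpha chain of the laminin-332 receptor alpha-3 beta-1, had the highest level of all the subunits. Its normalised reads were 46641, 47415, 46396 and 34725 in Vehicle and 44509, 42389, 43928 and 34677 in Acetate. Replicate 4 was low in both groups and hardly differed between them, and the other pairs were lower in Acetate. The mean of -0.08 ± 0.03 (SE, log2; 95% interval -0.14 to -0.02) did not pass the test (adjusted p = 0.125, limma), and without replicate 1 it was -0.08 (adjusted p = 0.174). On recovered reads edgeR called both alpha chains lower, Itga3 by -0.10 (adjusted p = 0.0192) and Itga6 by -0.11 (adjusted p = 0.0448). DESeq2 on the same reads called neither Itga3 (adjusted p = 0.0574) nor Itga6 (0.127). Without replicate 3 edgeR lost both calls (adjusted p = 0.0702 and 0.171).

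Itga2, the collagen-binding alpha chain of alpha-2 beta-1, fell the most. The gene (ENSMUSG00000015533, chromosome 13, 114833081 to 114932100, minus strand) had 4585, 5267, 5670 and 3864 normalised reads in Vehicle and 3437, 4201, 4471 and 3444 in Acetate. The order of the replicates was nearly the same in both groups, and the Acetate libraries of replicates 1 and 4 lay below every Vehicle library. Falls within pairs ran from -0.42 in replicate 1 to -0.17 in replicate 4. The mean of -0.31 ± 0.04 (SE, log2; 95% interval -0.39 to -0.23) had an adjusted p of 6.88e-04 (limma), and without replicate 1 it was -0.28 (adjusted p = 0.00148). Treatment held 40% of the variance of Itga2, the largest share among the 10 subunits, beside 56.6% for the replicate number.

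Itgb1 (ENSMUSG00000025809, chromosome 8, 128685654 to 128733200, plus strand), the partner of Itga2, Itga3, Itga5, Itga6 and Itgav products, stood at 25262, 19056, 20153 and 18697 normalised reads in Vehicle and 24754, 19298, 20173 and 19708 in Acetate. Replicate 1 was high in both groups, and the other libraries lay close together whatever the treatment. The difference of 0.02 ± 0.03 (SE, log2) did not pass the test (adjusted p = 0.776, limma; 0.03 with an adjusted p of 0.564 without replicate 1), its 95% interval ran from -0.04 to 0.07, and its sign turned (-0.00) with median-of-ratios scaling. Measured against Itgb1 per kilobase, Itga5 was 3.43, 5.33, 5.53 and 4.34% in Vehicle and 3.81, 6.34, 6.09 and 4.93% in Acetate. The ratio of Itga2 to Itgb1 was 10.4, 15.8, 16.1 and 11.8% in Vehicle and 7.94, 12.5, 12.7 and 10% in Acetate. Every pair thus had more Itga5 and less Itga2 for the Itgb1 present.

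Levels could be set against each other only per length. In normalised reads per kilobase of exon, Itga3 (6073 to 8304 over the 8 libraries, median 7744) and Itgb1 (4582 to 6190, median 4884) stood above the other subunits, and Itga3 exceeded Itgb1 in 8 of 8 libraries. A middle set followed with medians of 479 to 648, in the order Itga6, Itgb5, Itga2, Itgav and Itgb4 by mean, whose ranges overlapped from each to the next. Itga5 (median 243), Itgb3 (140) and Itgb6 (18.4) closed the order, and ranges overlapped between these neighbours too. Between Itgb1 and Itga6 the ranges did not meet, the only such gap in the order.

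**Figure D3:**
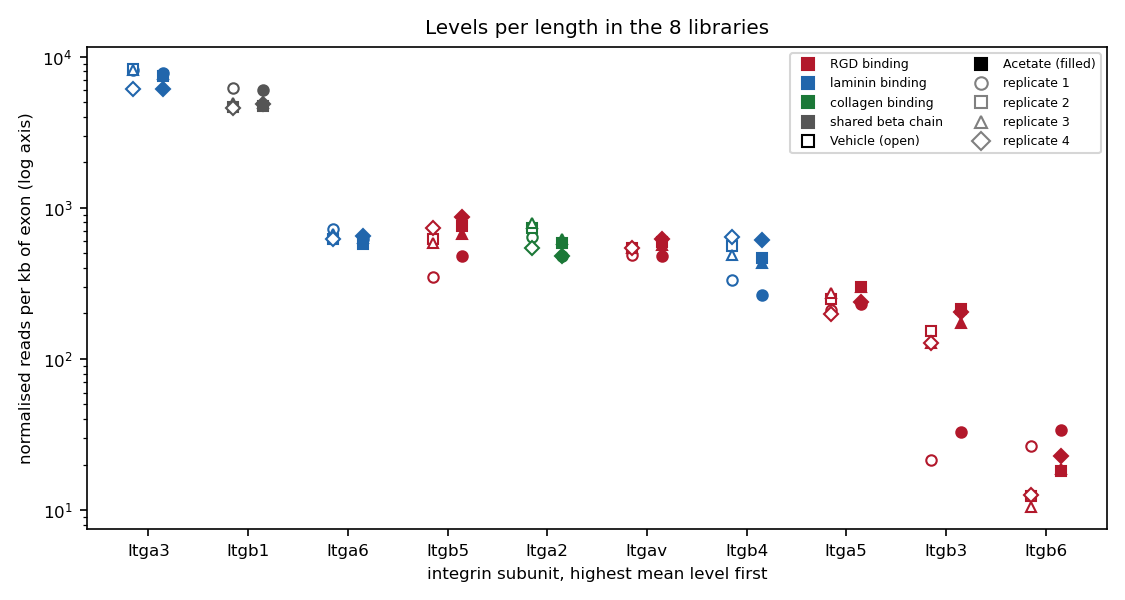
Normalised reads per kilobase of exon (log axis) of the 10 subunits in the 4 Vehicle libraries (open) and 4 Acetate libraries (filled), with 1 marker shape per replicate. Itga3 and Itgb1 lie at 4582 or above, 5 subunits follow between 265 and 875, and the circles of replicate 1 lie low for Itgb3 and high for Itgb6 in both groups.

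Correlations between subunits were taken over the 8 libraries, both groups pooled. On log2 values Itgb3 and Itgb5 had a Pearson r of 0.93, Itgav and Itgb3 of 0.92 and Itgav and Itgb5 of 0.91, whereas Itgb1 ran against Itgb3 (-0.94) and Itgb4 (-0.91). Itgb6 went with Itgb1 (0.76) and against Itgb4 (-0.73). These are descriptions over 8 libraries that share 4 replicate numbers, and replicate 1 lies at an end of the scale for most of these genes. Among the 10840 genes with a mean of at least 64, those most like Itgb3 were Pxn, which encodes the adhesion adaptor paxillin (r = 0.999), Kif3a (0.998) and Raet1e (0.998). Pxn itself changed by 0.08 and did not pass the test (adjusted p = 0.0755, limma), and replicate number held 93.9% of its variance. Those most like Itga5 were Phlda3 (0.973), Aldh9a1 (0.967) and Sympk (0.954), and those most like Itgb6 were Sap18b (0.968), Mef2d (0.965) and Sh2d1b1 (0.951).

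Of 18 further integrin subunit genes 11 were in the table, and 3 rose and 0 fell, with a median change of 0.29. Itgb8, the beta chain of another receptor for latent TGF-beta, had 7.63, 25.2, 23.1 and 28 normalised reads in Vehicle and 13.3, 41.2, 37.7 and 49.6 in Acetate, a change of 0.73 (adjusted p = 0.0269). Itga1, another collagen-binding alpha chain, went up from 73.3, 516, 407 and 936 to 100, 624, 501 and 1029, by 0.29 (adjusted p = 0.0107). Itga1 and Itga2 thus moved in opposite directions. Itgae, the alpha chain that binds E-cadherin, rose by 1.69 (adjusted p = 0.0291, limma), on 0 to 12 reads per library. The calls of Itgb8 and Itgae were lost without replicate 2, 3 or 4 (adjusted p up to 0.141 and 0.173), and that of Itga1 without replicate 2 (0.0676) or 3 (0.0958). Itgb8 also lost its call under quantile scaling (0.07) and DESeq2 (0.13), Itga1 under DESeq2 (0.056), and Itgae with a pseudocount of 0.1 (0.086). Itga4, Itga11, Itgad, Itgam, Itgax, Itgb2l and Itgbl1 were not in the table.

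Of the ligands of the RGD group 13 were measured, and 7 rose and 1 fell, with a median of 0.27. Fn1, which encodes fibronectin, had 37959, 63728, 63458 and 88622 normalised reads in Vehicle and 43968, 82039, 75413 and 109160 in Acetate. It was higher in Acetate in 4 of 4 pairs, by 0.28 ± 0.03 (SE, log2; adjusted p = 3.38e-04). Spp1, osteopontin, rose by 0.55 (adjusted p = 3.92e-06), Thbs1, thrombospondin-1, by 0.58 (adjusted p = 2.48e-04) and Mfge8, a milk fat globule protein bound by alpha-v receptors, by 0.31 (adjusted p = 2.35e-04, limma). Tgfb3, Adam15 and Npnt also rose. Tnc, tenascin-C, was the one that fell, by 0.31 (adjusted p = 0.00729), a call lost without replicate 3 (0.058) or 4 (0.0511). Vtn and Fgg were not in the table.

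Of the laminin chains 9 of 10 were measured, and 2 rose and 1 fell, with a median of 0.07. Lama3, the alpha chain of laminin-332, fell from 2277, 1623, 1579 and 1564 normalised reads to 1871, 1463, 1251 and 1356, by 0.24 (adjusted p = 0.00245), and it fell in 4 of 4 pairs, as Itgb4 did. Lama4 rose by 0.55 (adjusted p = 0.0113) and Lamb2 by 0.27 (adjusted p = 0.00637, limma), but Lama4 lost its call without replicate 2, 3 or 4 (up to 0.127) and Lamb2 without replicate 3 (0.0592) or 4 (0.0687). Collagen chains that serve as integrin ligands rose in 4 of 5 cases measured, with a median of 0.35. Col1a1 rose by 1.21 (adjusted p = 7.61e-04), from 9.92, 35, 48.3 and 59.4 normalised reads to 22.8, 110, 99.1 and 127, and Col5a1 by 0.35 (adjusted p = 1.99e-04). Among the chains of type IV collagen, Col4a2 rose by 0.16 (adjusted p = 0.00364) and Col4a1 by 0.13 (adjusted p = 0.0107, limma), the latter lost without replicate 2, 3 or 4 (up to 0.105).

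On the cytoplasmic side of the adhesion complex, 39 adaptors and kinases were all measured, and 6 rose and 2 fell, with a median of 0.03. Tln1, talin-1, which switches integrins on from inside the cell, fell from 11307, 12507, 13222 and 10107 normalised reads to 10126, 10894, 11710 and 9425, by 0.16 (adjusted p = 0.0035; 0.057 without replicate 3). Flna, filamin A, fell by 0.12 (adjusted p = 0.014). Tns1, tensin-1, rose by 0.76 (adjusted p = 0.00368; 0.0795 without replicate 4), and Nedd9, a docking protein of focal adhesions, by 0.33 (adjusted p = 8.78e-04). Kank1 and Kank2, which bind talin, rose by 0.20 (adjusted p = 0.0147) and 0.16 (adjusted p = 0.0083, limma). Flna, Kank1 and Kank2 lost their calls without replicate 2, 3 or 4 (up to 0.127, 0.0977 and 0.0704), Kank1 also under DESeq2 (0.103). Ptk2, focal adhesion kinase, had 4098 to 4636 normalised reads in Vehicle and 4154 to 4615 in Acetate (adjusted p = 0.979).

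Among 12 hemidesmosome and membrane partners of integrins, 3 rose and 2 fell, a median of 0.06. Plec, plectin, which links the Itgb4 product to keratin filaments, fell by 0.18 (adjusted p = 0.0196), a call lost without replicate 1, 2 or 3 (0.054, 0.0603 and 0.179). Slc3a2, the CD98 heavy chain that binds beta chain tails, fell by 0.23 (adjusted p = 0.0093), and Cav1, caveolin-1, rose by 0.34 (adjusted p = 0.00311). Cd81, a tetraspanin, rose by 0.22 (adjusted p = 0.00206) and Sdc1, syndecan-1, by 0.11 (adjusted p = 0.045, limma). Cav1 lost its call without replicate 3 (0.054) or 4 (0.0553), and Slc3a2 and Sdc1 without replicate 2, 3 or 4 (up to 0.105 and 0.243). Sdc1 also lost its call under median-of-ratios scaling (0.0979), edgeR (0.0662), DESeq2 (0.208) and a pseudocount of 0.1 (0.0608). Cd151, the tetraspanin partner of laminin receptors, differed by 0.07 and did not pass the test (adjusted p = 0.165). Of 8 measured genes of integrin trafficking and glycosylation only Rab4a, a GTPase of rapid recycling, passed, with a rise of 0.37 (adjusted p = 0.00464; 0.0557 without replicate 3, limma).

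**Figure D4:**
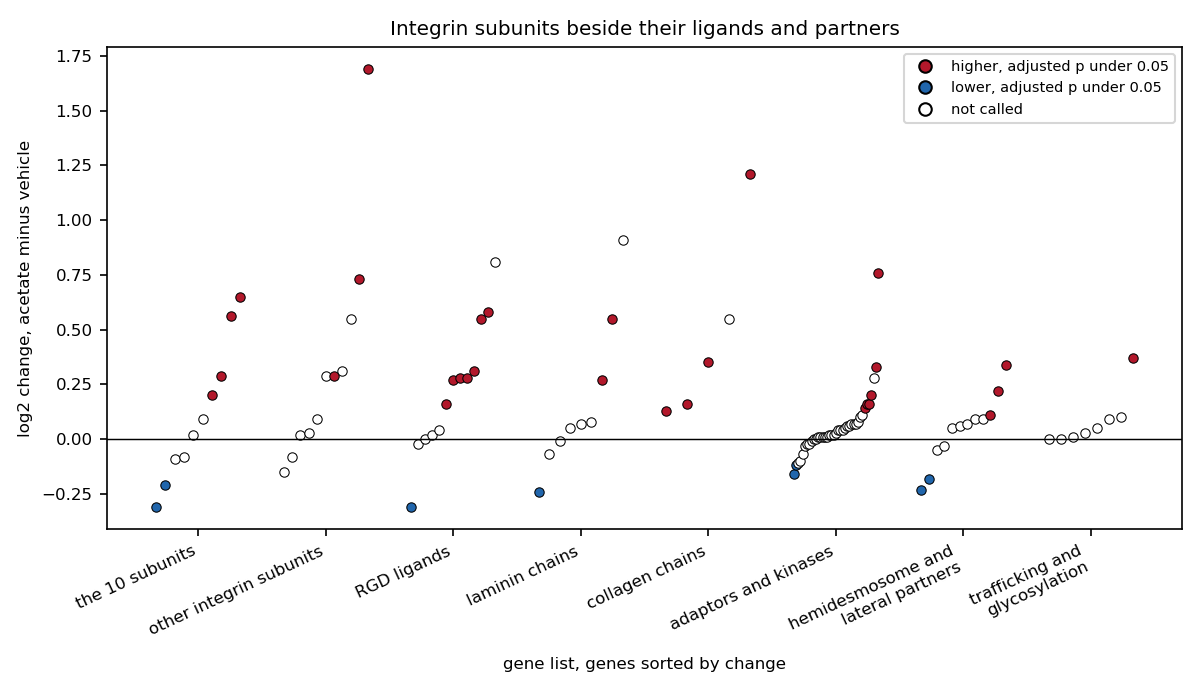
Log2 change, Acetate minus Vehicle, of the 10 subunits and of each list of ligands and partners, with genes sorted within a list, filled red for a rise and blue for a fall that passed the test, and open otherwise. RGD ligands have 7 red points of 13, the collagen chains 4 of 5, and the adaptors and kinases 6 of 39, most of which lie near 0.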

How the data were processed

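Stranded mRNA libraries were made from 4T1 cells. Per the study's methods and the labels, STAR was used by the authors for alignment to the mouse transcriptome (GRCm38); HTSeq is also named in the processing notes, and no versions are given in the sources used here. The authors deposited a normalised signal, the reads of each gene over the library total, scaled so that each library sums to 20 M (M, mega). The 20189 genes of the table were above 0 in at least 4 libraries. Every value was a whole multiple of 1 read within 0.02 of a read (100% of values), which gave the reads back (19.9 to 29.3 M per library). Depth therefore limits only genes of few reads, such as Itgb6, Itgb8 and Itgae.

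The members and gene lists were chosen with earlier results of these data known. Identifiers were matched to GENCODE M21 (20004 of 20189 with a symbol). Promoter windows were RefSeq's; Itga6, Itgb3 and Itgb4 had none, and the upstream part shown for Itgb6 was trimmed to 210 bases so that none lay inside the gene. Log2(value + 1) was tested with limma 3.58.1 (R 4.3.3, trend, two-sided) with the replicate number as a block and Benjamini-Hochberg adjustment over all genes. The +1 understates changes of low genes. The script was tested on simulated data. Same-numbered libraries share a label code, and deviations from group means correlated within pairs (0.814, 0.273, 0.201 and 0.691 for replicates 1 to 4, 18188 genes), so the numbers were taken as pairs. The study's own ranking was unpaired, and that fit is the alternative.

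Named genes were all members, up to 4 called genes per direction of largest change in each other list, and Fn1, Vtn, Spp1, Tln1, Ptk2, Plec, Cd151 and Itgb8. The 3 genes most correlated with Itga5, Itgb3 and Itgb6 were also named. Tgfb3, Adam15 and Npnt, and the markers, lie outside this rule. Alternatives were the fit without the block, pseudocounts of 0.1 and 5, a minimum mean of 10, other scalings, edgeR 4.0.16 and DESeq2 1.42.0 on recovered reads, and leaving out each pair.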

Additional observations from a re-analysis of the deposited data

Results flagged for a closer look

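Within groups of 4 libraries, 8 of the 78 groups tested held a library whose gap to its neighbour was a large part of the range of the group (by Dixon's test). Chance alone flags about 1 in 20 groups. Of the 8, 4 were of the 10 subunits and 6 lay in replicate 1. Itgav was lowest in Vehicle 1, at 5240 normalised reads against 5845 to 5862 in the other Vehicle libraries. Itgb6 was highest in Vehicle 1, at 188 against 74.4 to 89.4. Itgb1 was highest in Acetate 1, at 24754 against 19298 to 20173. Itga3 was lowest in Vehicle 4, at 34725 against 46396 to 47415.

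Among ligands and partners, Lama3 was highest in Vehicle 1, at 2277 against 1564 to 1623. Col5a1 was lowest in replicate 1 of both groups, at 954 against 2413 to 2546 in Vehicle and at 1221 against 3102 to 3215 in Acetate. Cav1 was lowest in Vehicle 2, at 549 against 630 to 636.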

How the results depend on the processing

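The calls depend on the pairing. Without the replicate block 0 of the 20189 genes (1744 with it), 0 of the 10 subunits (6 with it) and 0 of the genes in the other lists (32 with it) passed. The same counts were 0, 0 and 0 without the block and without replicate 1, an alternative chosen after seeing the data, when 1069 genes and 2 subunits had an unadjusted p under 0.05. The share differences of Itgb3, Itgb5 and Itgb6 had an exact permutation p of 0.514, 0.429 and 0.543 over unpaired libraries. Leaving out 1 pair, with the block kept, gave 409 to 1662 genes, 4 to 7 subunits and 13 to 34 listed genes; the fewest genes were left without replicate 3 (409), then replicate 4 (539) and replicate 2 (617). DESeq2 called 1126 genes and edgeR 2400, of which 8 were subunits. Of all calls 69.3% were higher, against 54.9% with median-of-ratios scaling, 60.5% with quantile scaling, 54.8% with edgeR and 58% with DESeq2.

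Itga2, Itgb3, Itgb5 and Itgb6 kept their direction and call under all 12 alternatives that kept the block. Itgb1 turned to -0.00 under median-of-ratios scaling, edgeR (also without replicate 3), DESeq2 and without replicate 4, and was 0.03 without replicate 1. Ptk2 turned to -0.02 under median-of-ratios scaling, edgeR (also without replicate 3) and DESeq2, and to -0.00 under quantile scaling and without replicate 4. Pecam1 turned to -0.01 without replicate 2, and reached 0.71 without replicate 3. With edgeR without replicate 3, also chosen after seeing the data, the calls of Itga1 (adjusted p = 0.0764), Itgae (0.106), Pdgfrb (0.0592) and Sdc1 (0.253) were lost. DESeq2 gave no adjusted p for Itgae, Pdgfrb and the low markers. The causes were not tested.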
